A study of Mus musculus with 6 samples.

Results

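The genes described here encode 7 alpha subunits of heterotrimeric G proteins (Gnai1, Gnai2, Gnai3, Gnaq, Gna11, Gna12 and Gna13), both chains of soluble guanylyl cyclase (Gucy1a1 and Gucy1b1) and the cGMP-dependent protein kinase Prkg1. They are 10 of the 49315 genes in the deposited count table and were matched by symbol to their Ensembl identifiers on GRCm38. RNA was sequenced from TKO, a mouse ovarian cancer line whose name stands for triple knockout. In 3 libraries the line also carried a knockout of MNRR1 (KO), the mitochondrial and nuclear protein encoded by Chchd2, and 3 libraries came from TKO cells with MNRR1 intact, which the labels call wild type (WT). All groups therefore share the TKO background, whose knocked-out genes the labels do not list, and the KO libraries bear the name of a single clone. Differences due to the loss of MNRR1 and other traits of that clone cannot be told apart here, for any gene below. The labels do not say that replicates were separate cultures, so p-values and errors cover the variation among these libraries alone and may be technical.

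A G protein alpha subunit binds GTP after an activated receptor has acted on it, separates from its beta and gamma partners and turns to its own effectors. The Gi subunits (Gnai1, Gnai2, Gnai3) inhibit adenylyl cyclase, Gq and G11 (Gnaq, Gna11) activate phospholipase C beta, and G12 and G13 (Gna12, Gna13) act on exchange factors for small GTPases. Soluble guanylyl cyclase is a heterodimer of an alpha and a beta chain. It makes cGMP when nitric oxide binds the haem of the beta chain, and Prkg1 is a main kinase that cGMP switches on in smooth muscle and other contractile cells.

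The members were chosen by function and selected on their counts and fitted changes in this same comparison, in which Gnai1 and Gucy1a1 had the 8th and 16th most negative fitted changes of the 16033 genes tested. Values of the 10 genes in KO and WT are for that reason a description, and no p-value is given for them.

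The carboxyl-terminal tail of an alpha subunit is the part that docks into the receptor, and in Gi proteins pertussis toxin modifies a cysteine there. The last 36 coding bases before the stop codon (GENCODE M21 transcripts, GRCm38, 5′ to 3′) are shown to let the paralogues be compared, with capitals at bases that differ from Gnai1.
Gnai1: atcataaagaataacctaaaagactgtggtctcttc
Gnai2: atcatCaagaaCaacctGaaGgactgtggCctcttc
Gnai3: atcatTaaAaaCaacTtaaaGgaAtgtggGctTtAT
Gnaq: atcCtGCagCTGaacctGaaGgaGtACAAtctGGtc
Gna11: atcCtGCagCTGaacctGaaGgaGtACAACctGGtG
Gna12: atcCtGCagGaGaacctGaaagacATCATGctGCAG
Gna13: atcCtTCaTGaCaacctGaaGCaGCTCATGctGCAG
Gnai2 differs from Gnai1 at 5 of these bases and Gnai3 at 10, against 15 to 20 in the Gq and G12 classes. Over the whole coding sequence Gnai1 was 78.5% identical to Gnai2 and 78.2% to Gnai3, Gnaq was 80.5% identical to Gna11, and Gna12 was 66.6% identical to Gna13. No 50-base stretch of the annotated Gnai1, Gnai3, Gna11 or Gucy1b1 transcripts occurred in a transcript of another gene. For Gna12, 10.8% of such stretches lay in Amz1, a gene on the opposite strand that overlaps it. Amz1 had at most 42 counts in any library, against at least 1173 for Gna12.

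Both genes with the greatest differences had a RefSeq promoter window (GRCm38.p6), and the 250 bases before each start are shown because the transcripts were nearly absent from the same libraries, with CpG sites in capitals. They lie at chr5:18360414-18360663 for Gnai1 and chr3:82145651-82145900 for Gucy1a1, the first of 2 windows, both on the minus strand. The RefSeq start of Gucy1a1 differs from the GENCODE position given below (to 82145789), so part of its window lies inside the gene as placed there.
Gnai1: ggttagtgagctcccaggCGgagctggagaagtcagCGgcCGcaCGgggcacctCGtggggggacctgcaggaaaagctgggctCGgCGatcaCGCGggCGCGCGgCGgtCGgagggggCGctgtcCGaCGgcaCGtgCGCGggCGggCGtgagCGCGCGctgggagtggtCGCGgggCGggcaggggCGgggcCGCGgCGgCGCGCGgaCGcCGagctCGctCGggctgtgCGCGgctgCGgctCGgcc
Gucy1a1: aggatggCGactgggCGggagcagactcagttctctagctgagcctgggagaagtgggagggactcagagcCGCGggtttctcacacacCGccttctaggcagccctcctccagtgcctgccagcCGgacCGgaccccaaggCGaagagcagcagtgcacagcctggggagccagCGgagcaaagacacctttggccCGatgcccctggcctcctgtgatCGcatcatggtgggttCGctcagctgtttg
The Gnai1 window holds 43 CpG sites, more than 99.3% of 32851 promoter windows of the same length, whose median was 6. The Gucy1a1 window holds 12, more than 66.5% of them. Of the other alpha subunit genes with a window, Gna11 held 38 (more than 98.1% of windows), Gnaq 37 (97.8%) and Gna13 33 (96%). Gna12 held 20 (82.1%) and Gnai3 18 (78.3%). A high CpG count was therefore not particular to Gnai1. Among motifs searched on both strands, GGGCGG occurred 3 times in the Gnai1 window and once in that of Gucy1a1, and 32.7% of all windows hold it. CACGTG occurred once in the Gnai1 window, as in those of Gnai3 and Gna13, and is held by 6.02% of windows. TGACGT (6.47% of windows) and GGAAGT (19.7%) were in neither the Gnai1 nor the Gucy1a1 window. The part of these sites in the changes was not tested.

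Total counts ran from 33226463 to 40983999 per library. Chchd2, the targeted gene, averaged 352 ± 13.7 CPM (library-scaled counts, with TMM factors) in WT and 17.1 ± 0.499 CPM in KO (SD, n = 3 each), so the target was low where the labels say it should be. Of the 16033 genes tested with edgeR's quasi-likelihood test, 55.7% were called at an adjusted p under 0.05, with 27.8% higher and 27.8% lower in KO. For 64.0% of tested genes the KO range lay outside the WT range. The centre of all log2 changes was 0.01 with TMM but 0.13 when only library totals were used, and changes of that size depend on the scaling. Of 10 ovarian epithelial and Mullerian markers, Wt1, Krt7, Krt8, Krt18, Krt19, Msln and Muc16 had at least 2568 counts in every library, while Epcam had 75 to 114, Cdh1 12 to 23 and Pax8 at most 19. Of the 9 tested, 4 fell (Krt7, Krt8, Krt18 and Msln) and 2 rose (Krt19 and Muc16), against 27.8% of all genes in each direction. The summed level of the 10 markers was 2251 to 2381 CPM in KO and 2776 to 2931 CPM in WT libraries. Of 6 endothelial markers 3 were tested, with Kdr lower (log2 change -2.23), Tek higher (2.54) and Pecam1 not called, and the list summed to 2.73 to 3.79 CPM in KO and 5.74 to 6.26 CPM in WT. Of 6 leukocyte markers only Cd68 was tested and it was lower (-0.68), with sums of 2.65 to 3.27 CPM in KO and 4.26 to 6.61 CPM in WT. Tie1 and Cd3e were the markers of those lists at 0 in all libraries. The part of these markers in the results was not tested.

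Of the 10 genes, 9 passed the filter on low counts and Gucy1b1 did not. Among those 9, 6 were called lower in KO and 0 higher, against 55.7% called and 27.8% called lower over all genes. These counts depend on the scaling and on single libraries. Library totals gave 2 lower and 3 higher, and without WT replicate 2 only 2 were called. Over all genes, 7653 were called without that replicate, against 8925 with every library. All 9 had KO and WT libraries that did not overlap, as 64.0% of tested genes did, and 7 of them had fitted log2 changes from -0.26 to 0.29. The median log2 change was -0.15 for the 9 genes and 0.01 for all genes tested.

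**Figure D1:**
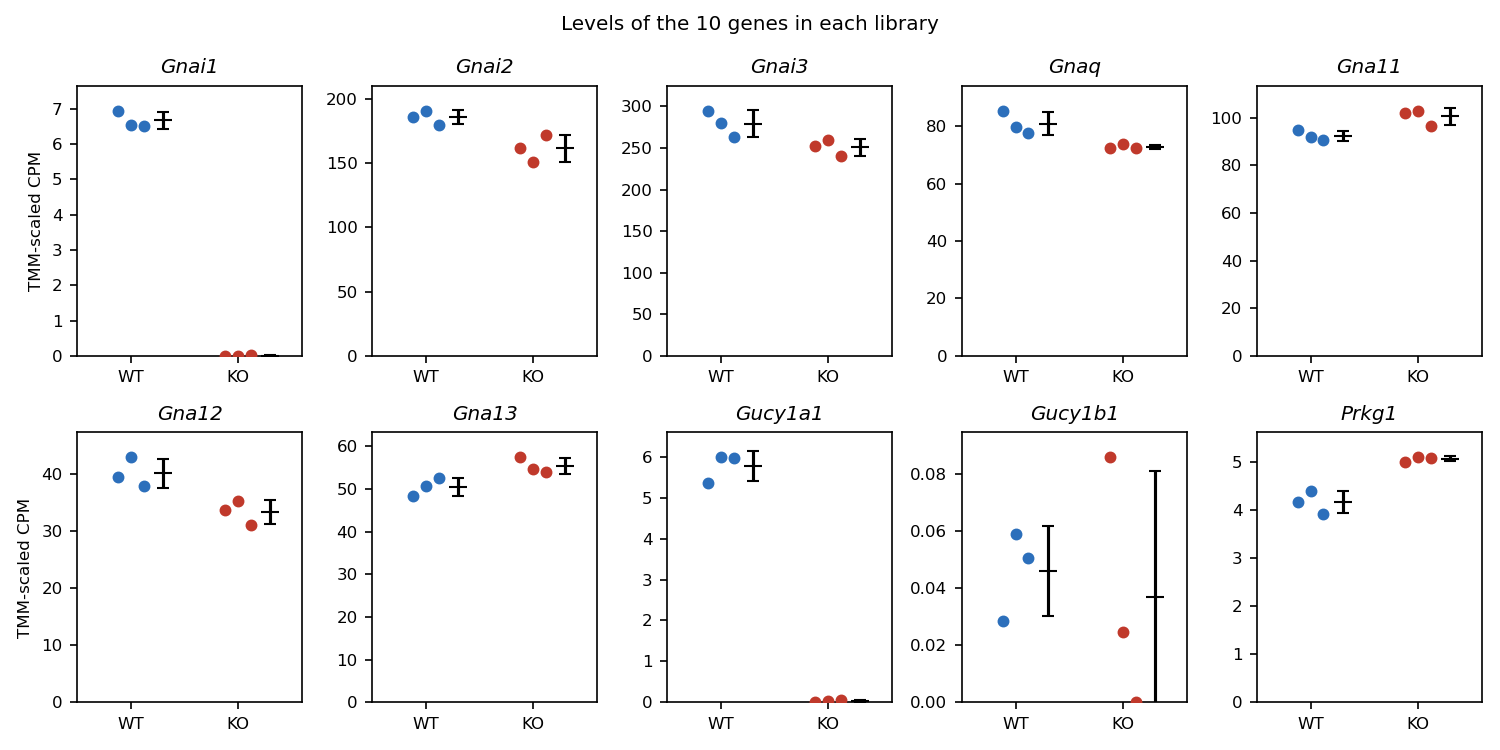
Levels of the 10 genes in TMM-scaled CPM (vertical axes, each from 0) in 3 WT and 3 KO libraries, with points for libraries and the bar for mean ± SD (cut at 0). Gnai1 and Gucy1a1 dropped to near 0 CPM in KO from 6.68 and 5.77 CPM in WT, Gucy1b1 stayed under 0.09 CPM throughout, and the remaining genes were at similar levels in both genotypes.

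Gnai1 (ENSMUSG00000057614, chromosome 5, positions 18265135 to 18360355, minus strand) was the Gi subunit that nearly vanished from the KO libraries. It had 0, 0 and 1 counts in KO replicates 1 to 3 and 243, 222 and 259 counts in WT replicates 1 to 3. All WT libraries were far above all KO libraries. Over summed counts the WT level was 763 times the KO level, with an exact (Clopper-Pearson) 95% interval of 137 to 30190 that covers counting error only. A count of 0 in a KO library allows up to 3 counts, or 0.0737 to 0.0859 CPM.

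Its paralogues carried most of the Gi alpha transcript in both genotypes. Gnai3 (chromosome 3) was at 252, 260 and 240 CPM in KO and 295, 280 and 263 CPM in WT replicates 1 to 3. Gnai2 (chromosome 9) was at 162, 151 and 172 CPM in KO and 186, 191 and 180 CPM in WT libraries. Each KO library was below each WT library for both genes, by small margins. The fitted log2 changes were -0.15 (SE 0.06) for Gnai3 and -0.20 (SE 0.06) for Gnai2, and with library totals they were -0.03 and -0.08 and neither was called. The Gnai3 call was also lost with upper quartile scaling (-0.10) and without KO replicate 1 or 3 or WT replicate 1 or 2, and that of Gnai2 without WT replicate 2.

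Levels of different genes were compared as RPKM, the TMM-scaled CPM per kilobase of exon. In WT libraries Gnai1 was at 2.13 ± 0.0760 RPKM, beside 49.1 ± 1.47 RPKM for Gnai2 and 85.5 ± 4.97 RPKM for Gnai3 (SD, n = 3). Gnai1 thus made up 1.56% ± 0.0442 of the summed RPKM of the Gi genes in WT and 0.00230% ± 0.00399 in KO libraries. That sum was 142, 138 and 130 RPKM in WT replicates 1 to 3 and 120, 119 and 119 RPKM in KO replicates 1 to 3. The log2 difference of the sums was -0.19, and it moved to -0.07 with library totals. The ratio of Gnai3 to Gnai2, in which scaling between libraries cancels, was 1.81 ± 0.187 in KO and 1.74 ± 0.0812 in WT libraries, with overlap.

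**Figure D2:**
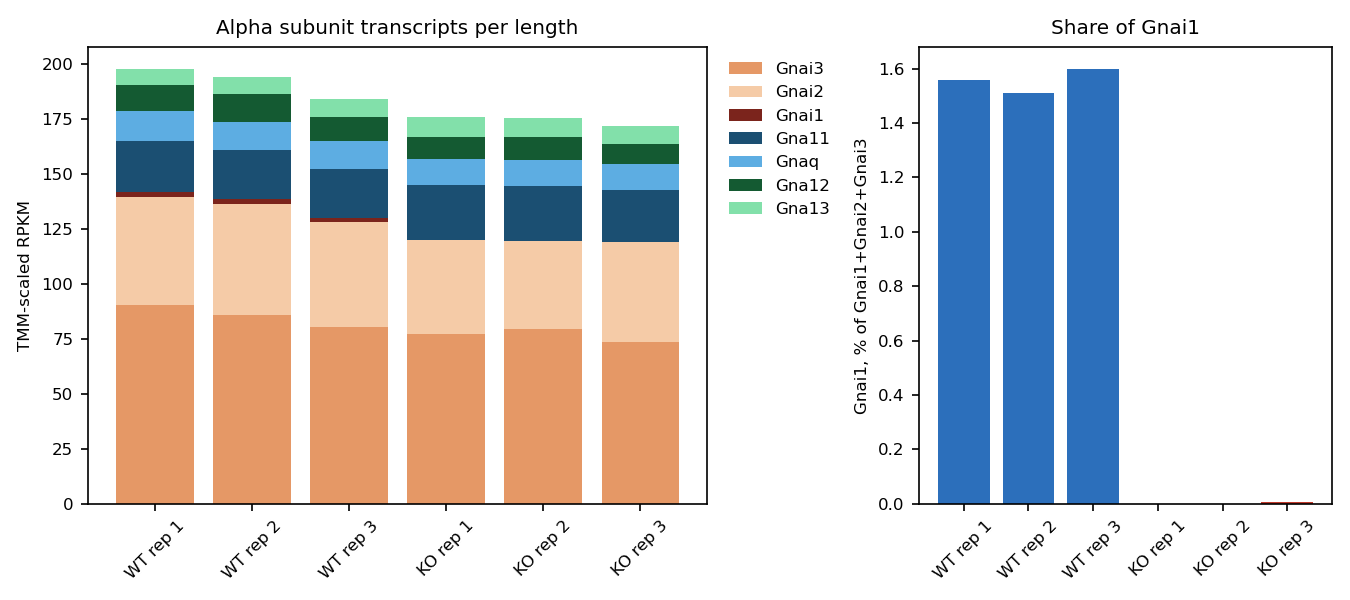
Left, TMM-scaled RPKM of the 7 alpha subunit genes stacked for each library. Right, Gnai1 as a percentage of the summed RPKM of Gnai1, Gnai2 and Gnai3, which was 1.51% to 1.6% in WT libraries and at most 0.00691% in KO libraries.

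In the Gq class, Gnaq and Gna11 differed in opposite directions between the genotypes, by small margins. Gnaq (chromosome 19) was at 72.4, 73.6 and 72.2 CPM in KO and 85.4, 79.7 and 77.5 CPM in WT replicates 1 to 3. Gna11 (chromosome 10), which couples to the same effector, was at 102, 103 and 96.6 CPM in KO and 94.7, 91.8 and 90.8 CPM in WT libraries. Gnaq was lower and Gna11 higher in every KO library than in every WT library. The log2 changes were -0.15 (SE 0.06) and 0.12 (SE 0.05), and the second was not called with TMM. The within-library ratio of Gna11 to Gnaq in RPKM, computed after these values were seen, ran 1.67, 1.74 and 1.77 over WT replicates 1 to 3 and 2.13, 2.10 and 2.02 over KO replicates 1 to 3. The ratio was 1.21 times as high in KO and does not depend on the scaling. Its lack of overlap between the genotypes follows from the opposite directions of Gnaq and Gna11 with TMM and is not a separate result. The Gnaq call was lost with library totals (log2 change -0.03), with upper quartile scaling, with no filter on low counts, and without KO replicate 1 or 3 or WT replicate 1 or 2. Gna11 was called higher with library totals (0.24) and upper quartiles (0.17), with the filter of 1 CPM (0.13) and without KO replicate 3 (0.15).

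In the G12 class, 1 of the genes was called. Gna12 (chromosome 5) was at 33.6, 35.3 and 31.0 CPM in KO and 39.4, 42.9 and 37.8 CPM in WT libraries. Its fitted log2 change was -0.26 (SE 0.07). Its call was lost with library totals (-0.14) and without WT replicate 2 (-0.21). Gna13 (chromosome 11) was at 57.5, 54.7 and 53.9 CPM in KO and 48.3, 50.8 and 52.5 CPM in WT libraries. With a fitted log2 change of 0.13 (SE 0.06) it was not called with TMM. It was called higher with library totals (0.25), upper quartiles (0.18) and without KO replicate 2 (0.14). Every Gna13 value was higher in KO than in WT and every Gna12 value lower. The ratio of Gna13 to Gna12 in RPKM, also computed after these values were seen, was 0.886 ± 0.0550 in KO and 0.674 ± 0.0575 in WT libraries (SD, n = 3 each). It did not overlap between the genotypes, which follows from those opposite directions.

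By RPKM the order of the 7 alpha genes in WT libraries was Gnai3, Gnai2, Gna11, Gnaq, Gna12, Gna13 and Gnai1. The ranges of Gnaq (12.5 to 13.8 RPKM) and Gna12 (11.1 to 12.6 RPKM) overlapped, and no other neighbours in that order did. In KO libraries the first 6 came in the same order, with no overlap between neighbours, and Gnai1 was last. Gnas, the Gs subunit that stimulates adenylyl cyclase and is not among the 10 genes, was at 25.3 ± 1.98 RPKM in KO and 22.1 ± 1.12 RPKM in WT libraries, close to Gna11.

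Gucy1a1, the alpha 1 chain of soluble guanylyl cyclase (ENSMUSG00000033910, chromosome 3, positions 82092427 to 82145789, minus strand), was the other gene close to absent in KO. It had 0, 1 and 2 counts in KO replicates 1 to 3 and 187, 203 and 237 counts in WT replicates 1 to 3. No KO library came near a WT library. The WT level was 220 times the KO level over summed counts, with an exact 95% counting interval of 75.1 to 1071. The fitted log2 changes of Gnai1 and Gucy1a1 moved from -9.11 and -7.61 to -10.94 and -8.44 without KO replicate 3, the library with most of their KO counts, and that of Gnai1 was -8.46 in limma voom.

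Its partner chain was barely detected in either genotype. Gucy1b1 (chromosome 3, positions 82032006 to 82074689, minus strand) ends up 17.7 kb from Gucy1a1 and is the beta 1 chain, which carries the haem. Its counts were 3, 1 and 0 over KO and 1, 2 and 2 over WT replicates 1 to 3, at or under the 3 counts that a count of 0 allows. The ratio of WT to KO was 1.32 (exact 95% counting interval 0.284 to 6.64), so a difference was not detectable at this depth. In WT libraries Gucy1a1 had 627 counts in all against 5 for Gucy1b1.

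Other cyclase chains were compared per length. The alpha 2 chain gene Gucy1a2 was at 0.206 ± 0.0185 RPKM in KO and 0.109 ± 0.0225 RPKM in WT libraries, and its counts of 43, 57 and 57 in KO against 31, 20 and 28 in WT gave a log2 change of 0.91 (edgeR adjusted p = 0.00871). The beta 2 chain gene Gucy1b2 had at most 3 counts in any library. Npr1, the membrane-bound cyclase that is the receptor of atrial natriuretic peptide, was at 5.51 ± 1.33 RPKM in KO and 5.82 ± 0.0412 RPKM in WT libraries and was not called (edgeR adjusted p = 0.670). Its level per length was above that of every soluble cyclase chain in all 6 libraries.

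Prkg1 (ENSMUSG00000052920, chromosome 19, positions 30564489 to 31765033, minus strand), the cGMP-dependent kinase, was at 5.01, 5.11 and 5.10 CPM in KO and 4.18, 4.40 and 3.93 CPM in WT libraries. The KO libraries were all above the WT libraries. Cstf2t, a gene on the opposite strand inside Prkg1, had 1782 to 2930 counts and was called higher, and the strand setting of the counting is unknown. The log2 change of Prkg1 was 0.29 (SE 0.13), not called with TMM and called higher with library totals (0.41) and upper quartiles (0.34). Prkg2, the second cGMP kinase gene, went from 28, 23 and 29 counts in WT to 8, 8 and 0 counts in KO libraries, a log2 change of -2.37 (edgeR adjusted p = 0.00449), and was named after its values were seen. Per length, Prkg1 was above Prkg2 in every library, at 0.467 ± 0.00518 against 0.0264 ± 0.0231 RPKM in KO and 0.384 ± 0.0216 against 0.137 ± 0.0114 RPKM in WT.

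Markers of smooth muscle and pericytes, cells in which soluble guanylyl cyclase and Prkg1 are known to act, moved with the genotype. Of 8 tested genes on that list of 10, 6 fell and 1 (Pdgfrb) rose, against 27.8% lower and 27.8% higher over all genes. Those that fell were Acta2, Tagln, Cnn1, Des, Myl9 and Mcam, and Myh11 was not called (log2 change -0.18). The summed level of the list was 177 to 230 CPM in KO and 576 to 614 CPM in WT libraries. Most of that sum came from Mcam (mean 133 CPM in KO and 300 CPM in WT) and Acta2 (24.7 and 174 CPM). No marker on the list was at 0 in all libraries, and Rgs5 had at most 4 counts in any. The libraries came from a cancer line and a KO clone of it, and the labels name no smooth muscle cells or pericytes. In bulk RNA, fewer cells of a type and less RNA per cell cannot be told apart. The part of these markers in the Gucy1a1 difference was not tested.

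The neighbours that could be tested around both loci did not share the size of the change. The nearest on the list, Gnat3 (245 kb from Gnai1) and Asic5 (10.8 kb from the cyclase pair), had no counts. Tested neighbours of Gnai1 lay 535 to 2522 kb away. Of the 6 nearest protein-coding neighbours of Gnai1, 4 were tested and all 4 fell, against 27.8% lower over all genes. The semaphorin gene Sema3c, 535 kb away, went from 732 ± 10.1 to 402 ± 16.8 CPM (log2 change -0.86, edgeR adjusted p = 5.09e-07). The scaffold gene Magi2, 867 kb away on the other side, went from 0.706 ± 0.187 to 0.165 ± 0.0196 CPM (-2.06, edgeR adjusted p = 8.02e-04). Phtf2 and Tmem60, as far as 2398 and 2522 kb away, changed by -0.40 and -0.37. Cd36, 376 kb away, was below the filter, with 8 to 12 counts in KO and 5 to 9 counts in WT libraries. Gnat3, the gustatory alpha subunit gene beside Gnai1, had 0 counts in all 6 libraries. Around the cyclase pair, 3 of 6 neighbours were tested, with 2 higher and 1 lower, against 27.8% of all genes in each direction. The cathepsin gene Ctso (1.27) and the microtubule protein gene Map9 (1.20) rose and Tdo2, an enzyme of tryptophan breakdown, fell (-1.06) on the log2 scale. Asic5, Npy2r and Rbm46 had 0 counts in all libraries.

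**Figure D3:**
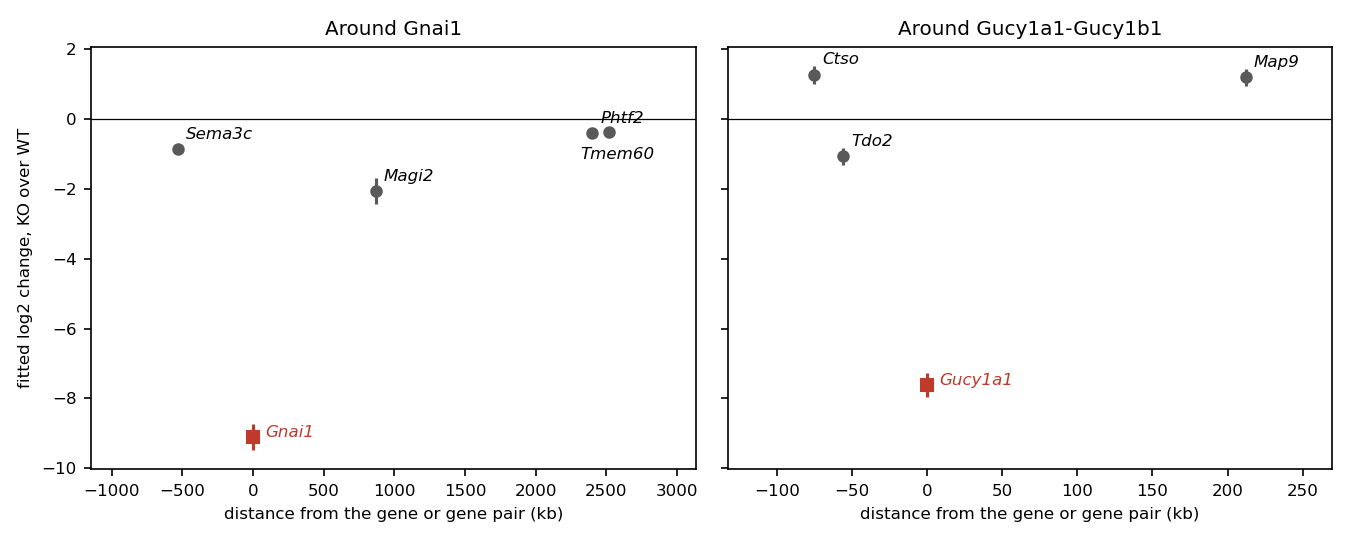
Fitted log2 change (KO over WT, bars for SE) of tested neighbours against their distance in kb from Gnai1 (left) and from the Gucy1a1 and Gucy1b1 pair (right), with the genes themselves as squares at 0. The neighbours lay between -2.06 and 1.27, whereas Gnai1 was at -9.11 and Gucy1a1 at -7.61.

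The genes most like Gnai1 across the 6 libraries were sought among the 2084 tested genes within 2-fold of its mean CPM, as the Euclidean distance of mean-centred log2(CPM + 0.5). The nearest were Sgce (0.19), Hoxd8 (0.21), Bex1 (0.27), Gucy1a1 (0.36) and Mmp14 (0.42). For Gucy1a1 they were Mmp14 (0.13), Bex1 (0.16), Hoxd8 (0.22), 4930519A11Rik (0.32) and Vopp1 (0.34) among 2109 genes. All of these were called lower in KO, and the distances rest on the same 6 libraries, which fall into the KO and WT groups. Nearest to Prkg1 among 2140 genes were Eomes (0.07), Tmem231 (0.09), Ggnbp1 (0.09), Serf1 (0.10) and Ift88 (0.11).

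Beyond the 10 genes, 194 genes of the same pathways were examined in 11 lists, and 101 of them were tested. Of these, 39 rose and 23 fell (61.4% called, against 55.7% over all genes), and their median was 0.17 on the log2 scale against 0.01 for all genes. Over all genes 27.8% were higher and 27.8% lower, and the counts of each list below stand beside those shares.

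Among 7 other alpha subunit genes tested, 1 rose and 1 fell. Gnao1, the Go subunit abundant in brain, changed by -2.32 (edgeR adjusted p = 8.39e-05) from a level of 1.62 ± 0.433 CPM in WT. Gnas rose by 0.19, a call that did not hold without KO replicate 1, KO replicate 3 or any single WT replicate. Of 13 beta and gamma genes 5 rose and 3 fell. Gnb1, a main beta chain, changed by -0.38, from 404 ± 21.3 CPM in WT to 311 ± 21.5 CPM in KO (edgeR adjusted p = 4.51e-04), while Gnb5 rose by 0.47 and Gng7 by 0.48.

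RGS proteins speed GTP hydrolysis by alpha subunits, and GPSM proteins hold Gi subunits in the GDP-bound state. The list of these genes also held Ric8a and Ric8b, which belong to neither family. Of its 13 tested genes 5 rose, Ric8b (0.27) among them, and 2 fell, or 11 called in all with library totals or without KO replicate 2. Rgs3 rose from 12.4 ± 1.33 to 25.4 ± 3.81 CPM (log2 change 1.03, edgeR adjusted p = 4.20e-05) and Gpsm3 from 15.1 ± 0.857 to 28.2 ± 5.28 CPM (0.90). Rgs20 rose by 2.30 and Rgs17 changed by -2.33, both from genes under 2 CPM.

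Receptor genes moved in both directions, as did all tested genes (27.8% higher and 27.8% lower). Of 12 tested Gi-coupled receptors 5 rose and 4 fell, and the list's median was -0.04 on the log2 scale. The prostaglandin E receptor gene Ptger3 rose from 0.631 ± 0.400 to 5.81 ± 1.46 CPM (3.16, edgeR adjusted p = 5.24e-05) and the adenosine receptor gene Adora1 by 1.66. Without WT replicate 3 the Ptger3 change was 3.82, and without KO replicate 3 that of Bdkrb1, given next, was -5.42. The lysophosphatidic acid receptor gene Lpar1 changed by -1.55. Adra2a rose by 1.11, a call lost in limma voom and without KO replicate 1 (0.72), KO replicate 3, WT replicate 1 (0.79) or WT replicate 2. Of 11 tested receptors of Gq or G12/13, 2 rose and 4 fell. The bradykinin receptor gene Bdkrb1 changed by -4.52 (edgeR adjusted p = 2.25e-05), from 32, 47 and 60 counts in WT to 1, 1 and 4 counts in KO, and the related Bdkrb2 rose by 1.17.

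Effectors also changed. Of 6 adenylyl cyclase genes tested, 2 rose and 1 fell, with Adcy7 up from 37.2 ± 2.30 to 80.9 ± 13.7 CPM (1.12, edgeR adjusted p = 3.84e-05) and Adcy1, a calcium-stimulated form, down from 20.5 ± 0.295 to 5.08 ± 1.04 CPM (-2.01). Of 14 effectors of Gq and G12/13, 7 rose and 3 fell. Plcb3, a phospholipase C that Gq activates, rose by 0.85 and the exchange factor genes Arhgef25 and Kalrn by 0.84 and 0.75. The Kalrn call did not hold without KO replicate 2. Of 6 receptor kinase and arrestin genes 1 rose and 2 fell, or 1 called in all without WT replicate 2, and Grk2 changed by -0.35.

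In the cGMP pathway, 5 of 9 tested synthesis genes rose and 2 fell, against 27.8% of all genes in each direction. The endothelial nitric oxide synthase gene Nos3 rose from 1.99 ± 0.349 to 5.85 ± 0.95 CPM (1.55, edgeR adjusted p = 4.16e-05) and Gucy2g, a receptor-type guanylyl cyclase in mouse, by 1.09. Ddah1, which degrades an inhibitor of nitric oxide synthases, changed by -0.87. Of 4 tested phosphodiesterase genes 2 rose, Pde10a by 1.16 and Pde3b by 0.62, and the Pde3b call was lost without KO replicate 2 (0.50). Of 6 effector and substrate genes 4 rose and 1 fell. The phospholamban gene Pln rose by 1.40, the inositol trisphosphate receptor gene Itpr1 by 0.29 and Vasp, an actin regulator phosphorylated by Prkg1, by 0.25. The Pln change was 1.99 without WT replicate 3.

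**Figure D4:**
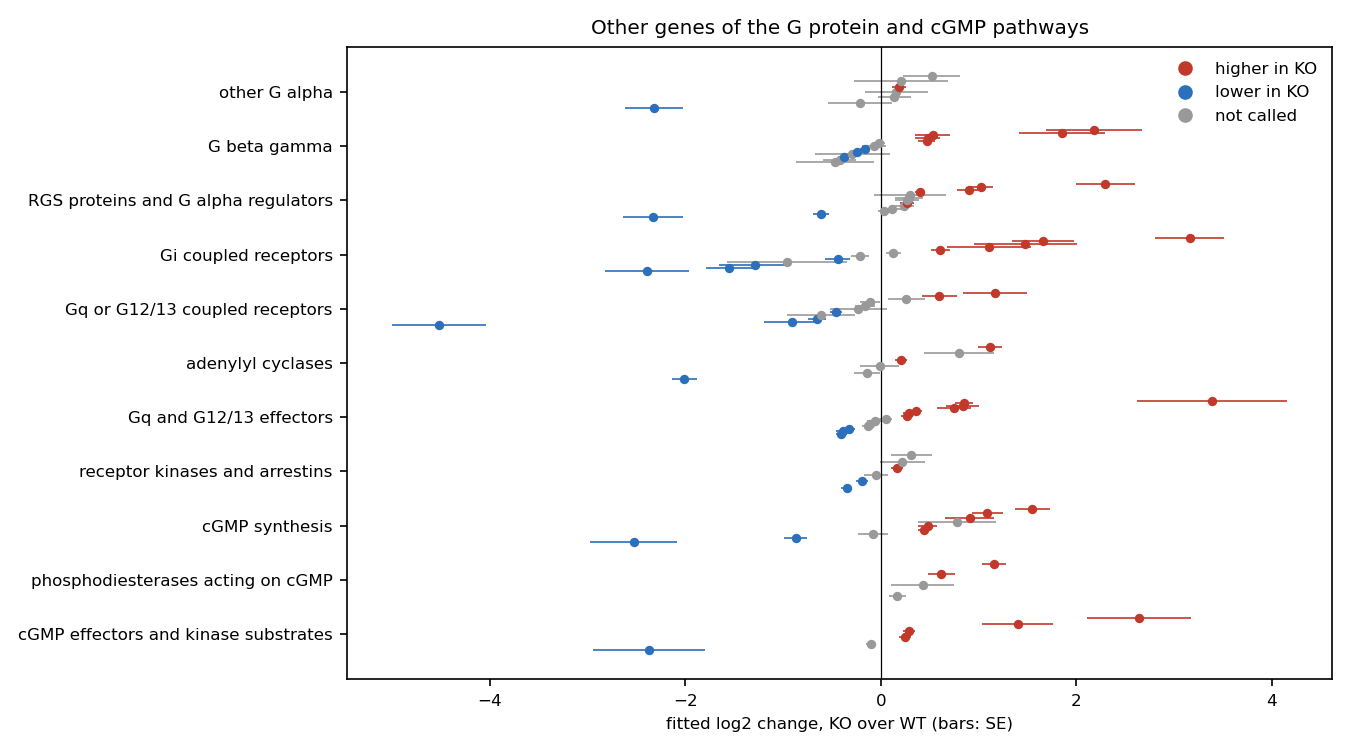
Fitted log2 change (horizontal axis, KO over WT, bars for SE) of the tested genes in each of the 11 lists, in red for genes called higher in KO, blue for lower and grey for not called. Higher and lower genes lie on both sides of 0 in most lists, with 39 higher and 23 lower in all.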

How the data were processed

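The authors deposited whole-number read counts for each Ensembl gene, with no scaling. Per the submitters' processing notes, the tools were STAR 2.5.2b, Subread 1.5.2, Trimmomatic 0.36, bcl2fastq 2.17 and DESeq2, with GRCm38 (mm10). The sources used here give no strand setting, annotation release or treatment of multi-mapping reads, so reads of overlapping genes can be misassigned. Symbols, positions and exon lengths came from GENCODE M21, which 49056 identifiers matched and 259 did not.

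Counts of all 6 libraries were tested with edgeR 4.0.16 (R 4.3.3) using filterByExpr at a minimum count of 10, TMM scaling and a robust quasi-likelihood fit with genotype as the only term. P-values were adjusted by Benjamini-Hochberg over 16033 genes, with a threshold of 0.05. The code was tested on simulated data.

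The members and lists were chosen with earlier results of these data known. Named pathway genes were in each list the called genes reaching 1 CPM in the higher genotype, at most 4, in order of absolute log2 change, not all of which are printed. Neighbours were the 3 nearest protein-coding genes on either side. Alternatives were other scalings and filters, DESeq2 1.42.0, limma 3.58.1 (voom), a non-robust fit, a replicate block and omission of each library. Protein sequences were not used here.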

Additional observations from a re-analysis of the deposited data

How the results depend on the processing

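No fitted change of the 9 tested members reversed sign under any of 15 alternatives. Of 135 such values, 17 lost the call and 9 gained it. Gnai1 and Gucy1a1 were called lower in all 15. The number of members called was 2 to 7 when a single library was left out, the number called lower was 2 to 6 and the number called higher 0 to 1. Over all genes the same omissions gave 7587 to 10002 called, 3798 to 5064 lower and 3789 to 4938 higher. The members called lower fell to 2 with library totals, and 3 were called higher with library totals, 3 with upper quartile scaling and 1 with the filter of 1 CPM, against 0. The log2 difference of the Gi sum was -0.14 with upper quartile scaling and -0.07 with library totals, against -0.19. The causes of these shifts were not tested. Leaving out a KO library put 0 to 3 members at another rank by level in KO, among genes of at most 3 counts per library. Library totals gave 5771 higher and 3294 lower genes in all, against 4463 and 4462. The filter of 1 CPM left fewer genes to test and gave 5 called Gi-coupled receptors, 3 called Gq or G12/13 receptors and 3 called cGMP effectors, against 9, 6 and 5. With the replicate number as a block 6 members, 64 pathway genes and 8878 genes were called. The labels number the sets 1 to 3 in both genotypes. Deviations of same-numbered KO and WT libraries correlated at -0.0542, 0.0514 and 0.0270 for numbers 1 to 3. KO replicate 1 correlated best with WT replicate 3 (0.079), and KO replicates 2 and 3 with the WT replicates of their own numbers. With 3 libraries per genotype and correlations this small, a pairing by number can be neither shown nor excluded. Counts at or under 3 per library limit what can be said of Gucy1b1.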
